A study of Mus musculus with 8 samples.

Results

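Fibroblasts of the oral lamina propria lay down a matrix of collagen fibrils, elastic fibres and the proteins that decorate them, and 40 genes of that matrix are described here across 4 sites of the mouse mouth and through the sections of each site. The members are a list of 40 gene symbols, drawn up with earlier results of these data known, and the row of each was read from the table of every sample, and all 40 had counts in all 8 samples, out of 33549 entries with a count. By role they were 6 fibrillar collagens, 3 chains of collagen VI, 4 fibril-associated and multiplexin collagens, 12 elastic fibre genes, 5 small leucine-rich proteoglycans, 9 matricellular and adhesive glycoproteins and 1 receptor, Pdgfra. The genes were profiled by tomo-seq, a method that barcodes RNA separately for every slice of a tissue cut from one end to the other. Wild-type C57BL/6J mice gave buccal mucosa (the inner cheek), dorsal tongue (its upper surface), hard palate and ventral tongue (its underside), with 2 replicates of each site and 20 sections of 14 µm a sample. The labels do not state the age of the mice. Libraries were made by CEL-seq2, which counts each molecule once at its 3' end by a unique molecular identifier (UMI), so values are counts of UMIs scaled to the same total in every sample (CPM) with no scaling by gene length.

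As background, collagens I, III and V assemble into the fibrils that carry tension, collagen VI forms beaded microfilaments around cells, and the fibril-associated collagens bind to fibril surfaces. Elastic fibres consist of an elastin core on a scaffold of fibrillin microfibrils, joined by microfibril-associated proteins and fibulins and cross-linked by lysyl oxidases. Small leucine-rich proteoglycans bind collagen and govern fibril growth, while matricellular proteins such as periostin and the tenascins modulate how cells hold to the matrix. The hard palate is firmly bound to bone and chewed upon, whereas the lining mucosae of cheek and ventral tongue are stretchable.

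The smallest total was 7830471 UMIs, in buccal mucosa replicate 2, the largest 26376536, in hard palate replicate 2, and the shallowest section held 2523 UMIs. Buccal mucosa replicate 2 stood apart: its keratinocyte list of 20 genes summed to 849 CPM, against 11363 to 21800 in the other 7 samples, while its salivary gland list of 12 genes summed to 16498 CPM, against 2.07 to 63.2. Its adipocyte list of 10 genes summed to 5078 CPM, against 36.7 to 1095. The replicates of every site differed in sex-linked genes, with Xist at 146 to 338 CPM in 4 samples (buccal mucosa 1, dorsal tongue 1, ventral tongue 1 and hard palate 2) and at 0.225 to 2.19 CPM in the other 4, and with the Y-linked genes Ddx3y, Eif2s3y, Kdm5d and Uty high where Xist was low. The replicates of a site therefore came from different mice, and the spread between them holds this difference too. A sum over sections holds many kinds of cell, so fewer fibroblasts and less RNA per fibroblast cannot be told apart, and which cells carried a member's transcripts was not tested.

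The 40 genes held 0.582% to 1.26% of a sample's UMIs. Collagens took 46.7% to 58.2% of the members' UMIs, led in the mean over samples by Col3a1 (the chain of collagen III), with 1165 and 2114 CPM in buccal mucosa replicates 1 and 2, 1280 and 1638 in dorsal tongue, 1111 and 1968 in hard palate, and in ventral tongue 1735 and 2073. Replicate 2 was the higher at every site, the sites overlapped, and Col1a2 exceeded Col3a1 in buccal mucosa replicate 1 (1179 CPM) and hard palate replicate 2 (2063 CPM). Among the collagen VI chains Col6a2 had the highest mean, with 109 CPM in hard palate replicate 1, where Col6a1 had 195, to 331 CPM in ventral tongue replicate 2. Col14a1 had the highest mean of the fibril-associated group, with 176 and 62.2 CPM in buccal mucosa, 74.3 and 58.3 in dorsal tongue, 23.4 and 82.6 in hard palate, and in ventral tongue 182 and 211.

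Small leucine-rich proteoglycans took 15.8% to 23.9% of the members' UMIs, and decorin (Dcn) alone ranged from 704 CPM in hard palate replicate 1 to 1617 CPM in buccal mucosa replicate 2. Matricellular and adhesive glycoproteins took 16.9% to 22.8%, led by Sparc, a collagen-binding glycoprotein, at 603 to 1833 CPM. The elastic fibre genes were the smaller share, 4.91% to 10.8%, and Mfap5 (a microfibril-associated glycoprotein) had the highest mean among them, with 102 and 155 CPM in buccal mucosa, 180 and 213 in dorsal tongue, 24.2 and 136 in hard palate, and in ventral tongue 339 and 239. Both ventral tongue samples lay above all others for Mfap5 and hard palate replicate 1 lay far below. Eln was above Mfap5 in both hard palate samples (62.6 and 251.5 CPM) and in buccal mucosa replicate 1 (109 CPM). Pdgfra, the platelet-derived growth factor receptor that marks fibroblasts, had 42.8 and 58.4 CPM in buccal mucosa, 51.6 and 49.8 in dorsal tongue, 20.3 and 48.7 in hard palate, and in ventral tongue 75.1 and 75.0. Hard palate replicate 1 was also the lowest sample for Col6a3 (45.03 to 138 CPM over the 8 samples), Col15a1, a multiplexin of basement membrane zones (36.4 to 113), biglycan (Bgn, 142 to 266), fibronectin (Fn1, 76.4 to 288), Mgp (141 to 586) and Eln (62.6 to 251.5). Hard palate replicate 2 was the highest for Mgp, Eln, Col6a1 (128 to 242), thrombospondin 2 (Thbs2, 12.9 to 70.8) and Mfap2 (8.46 to 30.9), so its replicates spanned the whole range of Mgp and Eln. Fbln1 ranged from 47.9 CPM in buccal mucosa replicate 2 to 111 in ventral tongue replicate 2, and the lysyl oxidase Lox from 2.36 in dorsal tongue replicate 1 to 74.2 in buccal mucosa replicate 2. The lowest members were Fbn2 at 1.02 to 6.64 CPM and Ltbp2 at 0.533 to 9.59 CPM.

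**Figure D1:**
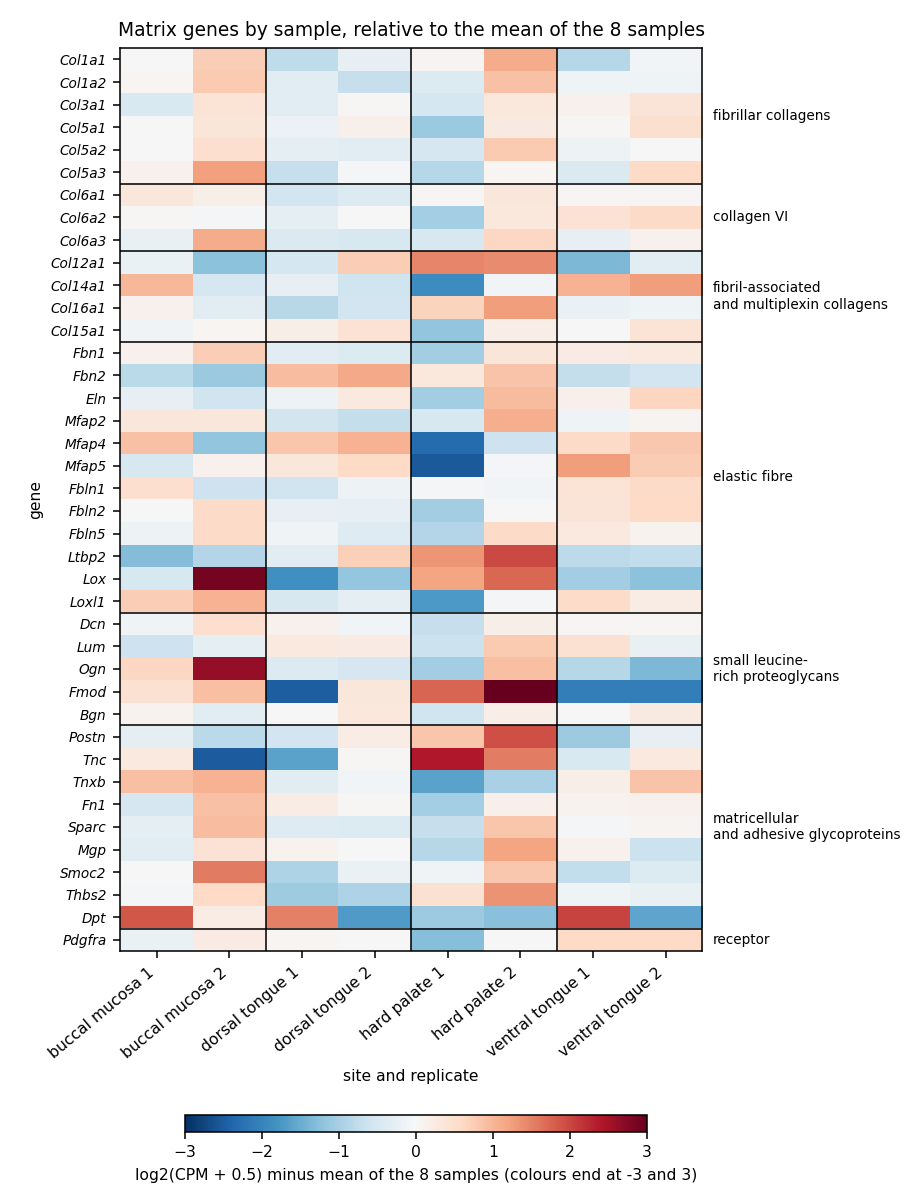
Heat map of the 40 genes (rows, by role) in the 8 samples (columns), as log2(CPM + 0.5) minus the gene's mean over the samples, red for above and blue for below. Fmod, Postn, Tnc, Col12a1 and Ltbp2 are red in both hard palate samples, Lox and Ogn are darkest in buccal mucosa replicate 2 (74.2 and 146 CPM), and Dpt changes colour between replicates.

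The number of possible UMI sequences sets a ceiling on the count of a gene in a section, and the highest count of a member was 3919. Col1a2 reached 3500 UMIs or more in 5 of its 160 sections, Col3a1 in 4, and Col1a1 and Sparc in 1 each. The limit lowers the most abundant collagens in the deepest sample: Col1a2 in hard palate replicate 2 stood at 2063 CPM by UMIs and at 2980 CPM by the deposited estimates of transcripts, and the collagens' share of the members was 54.9% by UMIs and 61.2% by transcripts there.

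Replicates differed most in the hard palate. The median fold between its replicates was 2.21 over the 40 members, against 1.28 over the 9940 genes with at least 10 CPM at that site, and replicate 2 was the higher for 36 of the 40. In buccal mucosa the medians were 1.55 and 1.57, in dorsal tongue 1.203 and 1.16, and in ventral tongue 1.17 and 1.201, so there the members varied between replicates about as much as other genes.

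The first comparison asks whether each site differs from the mean of the other 3, and the hard palate is where members passed the test most often. Higher there were 4 genes, fibromodulin (Fmod), periostin (Postn), Ltbp2 and Col16a1, and tenascin-X (Tnxb) was lower. These 5 of 40 members called (12.5%) compare with 9.76% of the 18609 genes tested; 4 of 40 were higher (10%, against 3.35% of all genes) and 1 of 40 lower (2.5%, against 6.42%). The total is close to the share over all genes, so it says nothing particular of the matrix; the values of the members themselves follow.

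Fmod, a proteoglycan that binds collagen I and shapes fibrils, had 33.2 and 92.2 CPM in the hard palate replicates, 13.3 and 18.3 in buccal mucosa, 1.32 and 12.3 in dorsal tongue and 1.92 and 1.90 in ventral tongue. Both palate samples lay above all 6 others, with a log2 fold change of 3.11 ± 0.68 (SE, adjusted p = 0.0353). Postn, a matricellular protein of bone-lining and tooth-anchoring connective tissue, had 85.8 and 186 CPM in the palate, 39.8 and 27.3 in buccal mucosa, 32.4 and 55.8 in dorsal tongue and 22.3 and 40.7 in ventral tongue. Again the groups did not overlap, and the log2 fold change was 1.62 ± 0.38 (SE, adjusted p = 0.0425).

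Col16a1, a fibril-associated collagen, had 62.6 and 94.7 CPM in the palate, 43.0 and 31.5 in buccal mucosa, 21.7 and 26.03 in dorsal tongue and 33.9 and 35.95 in ventral tongue. Every other sample was lower, and the log2 fold change was 1.02 ± 0.23 (SE, adjusted p = 0.0385). Ltbp2, a fibrillin-binding relative of the latent TGF-beta binding proteins, was scarce throughout, with 5.86 and 9.59 CPM in the palate against 0.533 to 3.69 CPM elsewhere (log2 fold change 2.36 ± 0.41, SE; adjusted p = 0.0174). Tnxb, a large glycoprotein that spaces collagen fibrils, had 9.75 and 15.3 CPM in the palate, 57.9 and 64.1 in buccal mucosa, 24.6 and 29.1 in dorsal tongue and 34.6 and 55.6 in ventral tongue. All 6 other samples were higher, and Tnxb fell by 2.04 ± 0.31 on the log2 scale (SE, adjusted p = 0.0111). The last 1000 bases of Tnxb overlap a pseudogene on the other strand, Cyp21a2-ps, and no source used here tells if counting was by strand, so its values are uncertain to that extent.

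**Figure D2:**
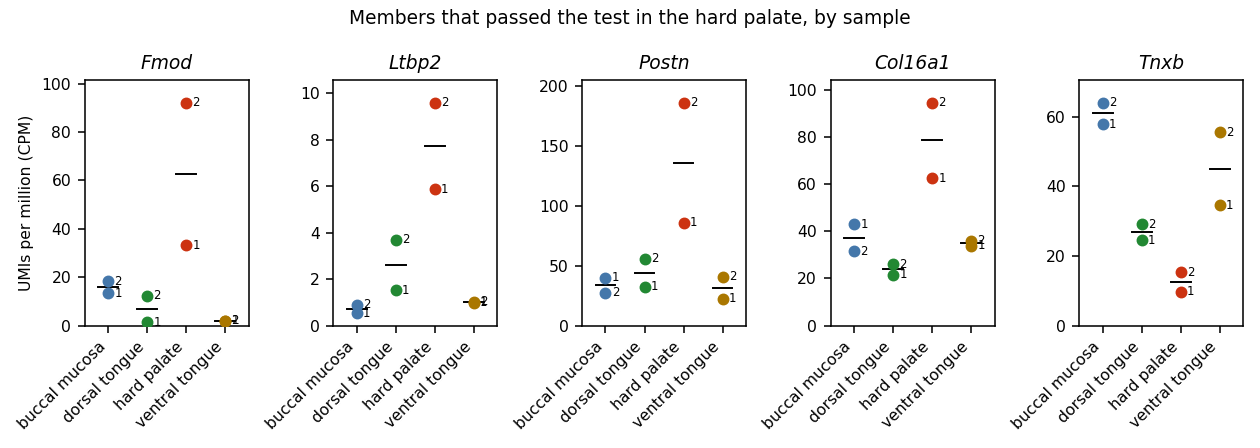
CPM (vertical axis, from 0, 1 scale a panel) of the 5 members that passed in the hard palate, 1 point a sample with its replicate number and a bar at the mean of each site. The 2 palate points lie above all others for Fmod, Ltbp2, Postn and Col16a1 and below all others for Tnxb.

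Several further members pointed the same way without passing. Tenascin-C (Tnc), a matricellular glycoprotein, had 117 and 64.3 CPM in the palate against 3.45 to 26.9 elsewhere, with no overlap (log2 fold change 2.15 ± 0.69, SE; adjusted p = 0.101). Col12a1, a fibril-associated collagen of tendon and ligament, had 35.7 and 34.6 CPM against 4.70 to 21.5 (1.56 ± 0.44, adjusted p = 0.0719). On the low side Mfap4, a microfibril protein, had 17.98 and 59.7 CPM against 40.1 to 190 (-2.14 ± 0.69, adjusted p = 0.103). No fibrillar collagen and no collagen VI chain passed, and their log2 fold changes had medians of -0.19 and -0.15. Over the 12 elastic fibre genes the median was -0.39, over all members -0.17 and over all genes tested -0.01.

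The call rests on few samples. Without hard palate replicate 1 no member passed (Tnxb at adjusted p = 0.127). Without hard palate replicate 2 there were 3, all lower, so none of the 4 higher genes held (adjusted p of 0.110 for Ltbp2 to 0.275 for Postn). Leaving out ventral tongue replicate 1 or 2 left 1 each, lower in both cases. Leaving out dorsal tongue replicate 1 or 2 left 3 each, 2 higher and 1 lower. Without buccal mucosa replicates 1 and 2 there were 10 and 9, in fits that called 5526 and 3242 of all genes.

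Markers of other tissues moved with the site, and their part in these results was not tested. Of 15 skeletal muscle genes 10 of 14 tested were lower in the palate, summing to 205 and 468 CPM against 12961 to 36678 elsewhere. Myh7 was at 0 in hard palate replicate 1 and in both dorsal tongue samples. Of 13 bone and cartilage genes 8 were tested and 4 were higher (Ibsp, Col2a1, Acan and Runx2), summing to 56.8 to 79.1 CPM against 12.8 to 33.3. Of 6 tendon genes Tnmd (9.69 and 41.5 CPM, against 0.0618 to 3.96) and Mkx were higher, while the list summed to 147 to 270 CPM against 39.97 to 252. Smooth muscle and pericyte genes were lower in 4 of 10 cases (292 to 759 CPM summed, against 1373 to 4789), endothelial genes in 2 of 9 tested (159 to 236, against 236 to 551), adipocyte genes in 2 of 9 tested (36.7 to 175, against 467 to 5078) and macrophage and immune genes in 1 of 10 (357 to 464, against 488 to 957). Of 20 keratinocyte genes 1 was higher, and their sum lay above every other sample (18823 to 21800 CPM, against 849 to 16763). None of the 12 fibroblast markers passed, and they summed to 2733 and 5798 CPM in the palate against 3018 to 5539. Their median log2 fold change was -0.59. Of these markers 6 are members themselves, among them Col1a1, Col1a2 and Dcn, so the sum largely repeats the members.

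The promoters of 4 of the members that passed are shown because these genes moved with the palate. They are RefSeq windows of 300 bases on the build GRCm38.p6, 250 before and 50 after a listed start; 25 of the 40 members had an entry, and for Postn the second of the listed starts is shown. Capitals mark core motifs that were searched on both strands, the TATA box core TATAAA, the CCAAT box and the AP-1 motif TGANTCA. The E-box CANNTG and the Sp1 motif GGGCGG were also searched but are not marked. They were in 72.3% and 35.7% of all windows and in 19 and 12 of the 25 members with an entry.
Fmod promoter, chr1:134037004-134037303, + strand: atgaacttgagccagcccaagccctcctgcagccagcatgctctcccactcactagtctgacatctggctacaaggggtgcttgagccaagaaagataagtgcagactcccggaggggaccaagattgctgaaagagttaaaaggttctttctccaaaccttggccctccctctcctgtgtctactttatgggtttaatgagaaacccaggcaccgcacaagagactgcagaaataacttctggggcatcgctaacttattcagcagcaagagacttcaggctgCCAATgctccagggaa
Postn promoter, chr3:54360857-54361156, + strand: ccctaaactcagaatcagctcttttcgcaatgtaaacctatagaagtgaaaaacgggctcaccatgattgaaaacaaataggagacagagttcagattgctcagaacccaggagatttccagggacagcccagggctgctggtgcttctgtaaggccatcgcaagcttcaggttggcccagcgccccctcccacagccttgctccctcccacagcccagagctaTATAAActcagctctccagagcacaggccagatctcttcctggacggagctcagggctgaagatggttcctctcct
Col16a1 promoter, chr4:130047590-130047889, + strand: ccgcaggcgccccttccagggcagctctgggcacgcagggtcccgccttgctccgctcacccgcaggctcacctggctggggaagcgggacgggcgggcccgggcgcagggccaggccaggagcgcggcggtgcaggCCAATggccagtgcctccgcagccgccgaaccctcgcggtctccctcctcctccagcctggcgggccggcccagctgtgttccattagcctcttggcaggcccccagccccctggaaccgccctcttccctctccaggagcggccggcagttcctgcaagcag
Tnxb promoter, chr17:34670285-34670584, + strand: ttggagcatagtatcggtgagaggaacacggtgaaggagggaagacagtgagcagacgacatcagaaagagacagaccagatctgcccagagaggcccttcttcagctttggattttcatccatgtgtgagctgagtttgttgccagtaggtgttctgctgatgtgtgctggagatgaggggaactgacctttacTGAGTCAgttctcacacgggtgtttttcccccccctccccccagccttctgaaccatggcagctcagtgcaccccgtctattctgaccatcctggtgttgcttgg
The Postn window holds TATAAA 26 bases before the start, the Col16a1 window holds CCAAT 113 bases before it, the Fmod window holds CCAAT 34 bases after it, and the Tnxb window holds TGANTCA 55 bases before it. Of 32851 promoter windows 13.6% hold TATAAA, 37.4% CCAAT and 7.81% TGANTCA, and of the 25 members with an entry 5, 7 and 2 do. A match describes letters in a window and is not a measured site. In the annotation of GRCm38 the genes lie at chr1:134037254-134048277 (Fmod), chr3:54361109-54391037 (Postn), chr4:130047840-130099283 (Col16a1) and chr17:34670535-34719815 (Tnxb), all on the + strand.

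The other sites gave few calls. In dorsal tongue 1 member passed, against 0.838% of all genes. It was Fbn2, the fibrillin of developing microfibrils, with 5.70 and 6.64 CPM against 1.02 to 5.42 elsewhere, which does not overlap, although all values were below 10 CPM (log2 fold change 1.82 ± 0.28, SE; adjusted p = 0.0480). It lost the call without either dorsal tongue sample, either hard palate sample or either ventral tongue sample (adjusted p up to 0.591), with reads in place of UMIs (0.101) and in epithelium-poor sections alone (0.331).

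In buccal mucosa no member passed (0.72% of all genes did; 7 members had an unadjusted p under 0.05 and 5 passed by DESeq2). The 3 with the smallest p were Tnxb (1.25 ± 0.25, adjusted p = 0.0770), Fbn2 (-1.60 ± 0.35, adjusted p = 0.0889) and Ogn (osteoglycin, 2.39 ± 0.59, adjusted p = 0.105). Ogn stood at 36.02 CPM in buccal mucosa replicate 1 and 146 in replicate 2, against 8.72 to 43.7 elsewhere, so only replicate 2 lay clear of the rest. Without buccal mucosa replicate 1 the site rests on replicate 2, assumed to vary like the other sites, and 6 members passed, in a fit that called 5093 of all genes; without any other single sample none did.

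In ventral tongue no member passed either (1.29% of all genes; 7 members at an unadjusted p under 0.05, 1 by DESeq2). The smallest p was that of Fmod (-3.20 ± 0.94, adjusted p = 0.212), followed by p by Tnxb (0.82 ± 0.26, adjusted p = 0.250) and Col14a1 (1.51 ± 0.50, adjusted p = 0.282). Between dorsal and ventral tongue no member passed, and 1 gene of all tested did (0.00537%; 2 members at an unadjusted p under 0.05, 1 by DESeq2). Fbn2 (2.04 ± 0.39, adjusted p = 0.339), Ltbp2 (1.46 ± 0.57, adjusted p = 0.903) and Col14a1 (-1.48 ± 0.67, adjusted p = 0.930) had the smallest p. The single test of any difference among the 4 sites called 2 members, Tnxb (adjusted p = 0.0372) and Fbn2 (adjusted p = 0.0377), against 4.77% of all genes; neither held without any 1 of the dorsal tongue, hard palate or ventral tongue samples (adjusted p up to 0.236 and 0.203).

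Set against the collagens, elastic fibre transcripts were most plentiful in the tongue. For every 100 UMIs of the 13 collagens, the 12 elastic fibre genes had 19.3 and 20.1 in dorsal tongue and 21.9 and 18.4 in ventral tongue, but 16.4 and 10.46 in buccal mucosa and 8.43 and 11.1 in hard palate. All 4 tongue samples lay above all 4 others, a description over chosen genes that carries no test. The single pair of elastin (Eln) and Col1a1 did the same: 25.6 and 24.5 Eln UMIs per 100 Col1a1 UMIs in dorsal tongue and 33.7 and 28.3 in ventral tongue, against 14.5 and 6.69 in buccal mucosa and 7.81 and 15.1 in hard palate. For proteoglycans the order was looser, from 28.9 per 100 collagen UMIs in hard palate replicate 2 to 51.3 in dorsal tongue replicate 1, and buccal mucosa replicate 1 (35.1) exceeded ventral tongue replicate 2 (31.5).

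The second comparison follows the members through the tissue, sections 11 to 20 against sections 1 to 10 of the same sample. The labels do not say which end is the surface, so later means only a higher section number. Of 40 members 14 were higher (35%, against 15.7% of the 17905 genes tested) and 1 was lower (2.5%, against 11.9%), 15 in all (37.5%, against 27.6%). By role 6 of 12 elastic fibre genes, 2 of 5 proteoglycans, 3 of 6 fibrillar collagens and 3 of 9 matricellular genes were higher, and no chain of collagen VI and no fibril-associated collagen passed. The median log2 difference was 0.38 over elastic fibre genes, 0.51 over proteoglycans, 0.19 over the 13 collagens, 0.27 over all members and 0.03 over all genes.

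**Figure D3:**
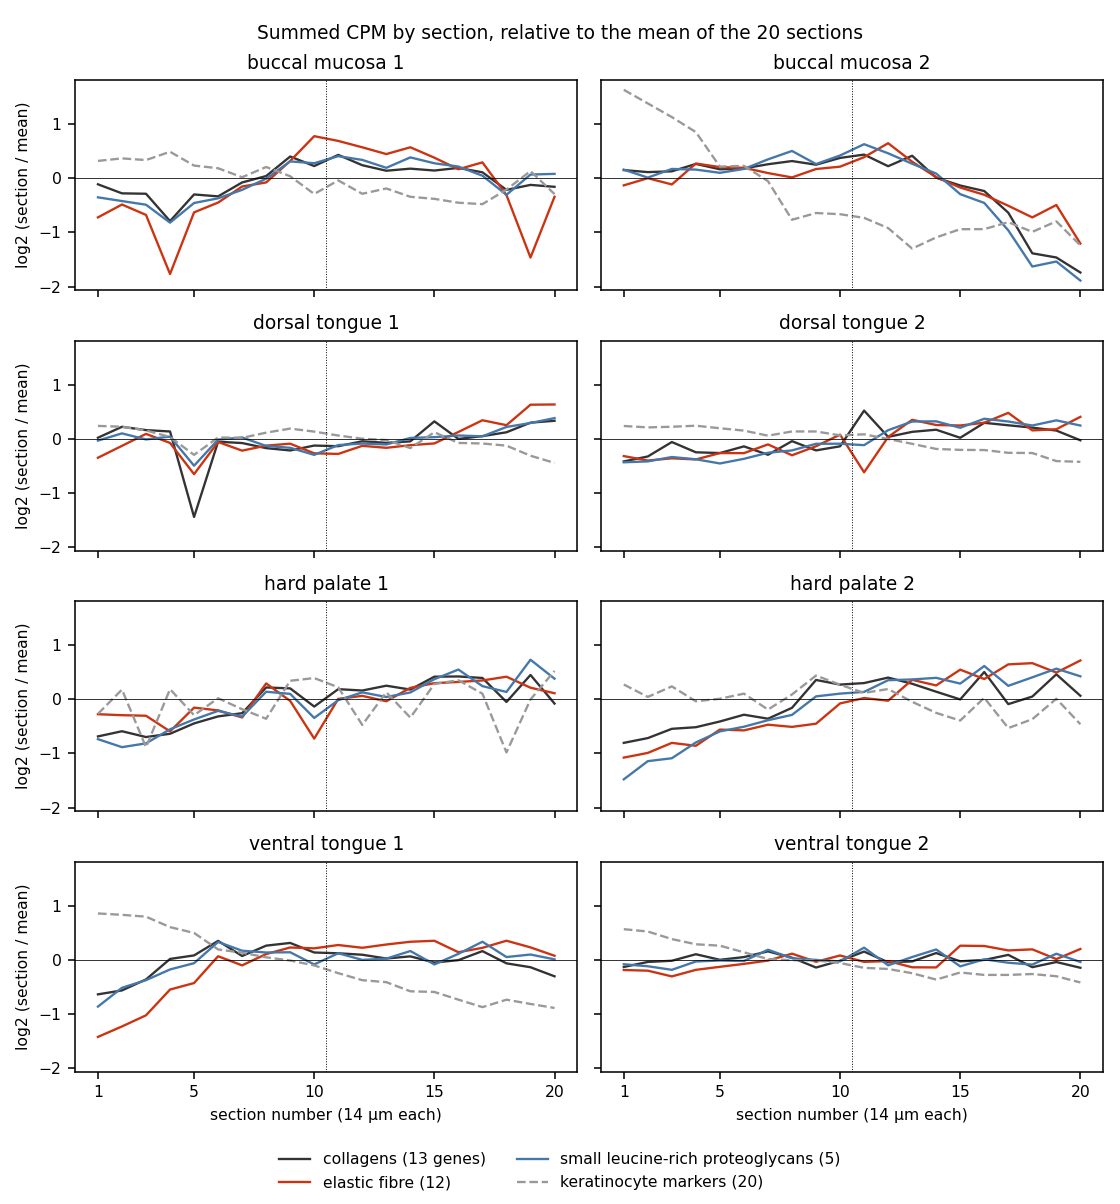
Summed CPM of the collagens, elastic fibre genes, small leucine-rich proteoglycans and keratinocyte markers in each section (horizontal axis, section number), as log2 of the section over the mean of the 20 sections, 1 panel a sample, with a dotted line between sections 10 and 11. The elastic fibre line starts below its mean and ends higher in ventral tongue 1 and hard palate 2. Every matrix line in buccal mucosa 2 peaks in section 11 or 12 and ends far lower. Single dips mark shallow sections such as section 5 of dorsal tongue 1.

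Loxl1, a lysyl oxidase that cross-links elastin, was called, and in no sample was it lower in the later sections. Its CPM in early and late sections was 35.5 and 59.8 in buccal mucosa replicate 1, 54.8 and 54.8 in replicate 2, 17.96 and 19.2 in dorsal tongue replicate 1 and 16.1 and 25.95 in replicate 2. In hard palate it went from 6.08 to 9.52 and from 11.1 to 36.2, and in ventral tongue from 26.2 to 46.7 and from 26.2 to 35.8. The fitted log2 difference was 0.63 ± 0.14 (SE, adjusted p = 0.00682), with buccal mucosa replicate 2 at no difference and hard palate replicate 2 the largest.

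Fbln2, a fibulin of basement membranes and elastic fibres, and Col5a3, a chain of collagen V, were higher late in all 8 samples. Fbln2 had 40.3 ± 16.9 CPM early and 53.0 ± 16.5 late (SD, n = 8), with log2 ratios from 0.04 to 0.92 and a fitted difference of 0.41 ± 0.11 (SE, adjusted p = 0.0152). Col5a3 had 22.4 ± 14.8 CPM early and 29.5 ± 14.1 late (SD, n = 8), with ratios from 0.04 to 1.43 and a fitted difference of 0.46 ± 0.12 (SE, adjusted p = 0.0141). Both lost the call without buccal mucosa replicate 1 (adjusted p = 0.0964 and 0.0872) and without hard palate replicate 2 (0.0738 and 0.0617), and Fbln2 also without dorsal tongue replicate 2 (0.0515).

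Of the other elastic fibre genes, Mfap5 was 0.75 ± 0.16 higher on the log2 scale (adjusted p = 0.00405), fibrillin 1 (Fbn1) 0.59 ± 0.11 (adjusted p = 0.00274), Mfap4 0.50 ± 0.09 (adjusted p = 0.00224) and Fbln5, a fibulin needed for elastic fibre assembly, 0.48 ± 0.10 (adjusted p = 0.00351), each in 7 of 8 samples. The exception was buccal mucosa replicate 2 for all of them, where Mfap5 went from 158 to 151 CPM. In that gene the change was steepest in hard palate replicate 2, from 49.2 to 200.4 CPM. Fbn2, Mfap2 and Fbln1 had fitted differences of -0.03, -0.02 and -0.02, and Eln itself had 0.19 ± 0.12 (adjusted p = 0.279), higher in 6 of 8 samples.

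Among proteoglycans, Ogn (0.92 ± 0.23, adjusted p = 0.0120) and lumican (Lum, 0.51 ± 0.13, adjusted p = 0.0144), a regulator of fibril thickness, were higher late in 7 of 8 samples, while Dcn had 0.24 ± 0.11 (adjusted p = 0.141). Lum went from 167 to 442 CPM in hard palate replicate 2, from 85.2 to 167 in replicate 1 and from 177 to 266 in dorsal tongue replicate 2, but from 174 to 142 in buccal mucosa replicate 2. The matricellular genes that rose were Mgp (matrix Gla protein, an inhibitor of calcification, 0.56 ± 0.16, adjusted p = 0.0237), Dpt (dermatopontin, a decorin-binding protein, 0.48 ± 0.14, adjusted p = 0.0216) and Postn (0.36 ± 0.11, adjusted p = 0.0366). Mgp and Postn were higher late in 7 of 8 samples and Dpt in 6.

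Tnc was the member that fell, by 0.45 ± 0.15 on the log2 scale (adjusted p = 0.0477). It went from 34.2 to 14.3 CPM in buccal mucosa replicate 1 and from 3.52 to 3.40 in replicate 2, and from 23.8 to 10.3 and from 35.0 to 17.9 in ventral tongue. In hard palate it was level, from 114 to 121 and from 61.8 to 66.2, as it was in dorsal tongue, from 5.88 to 7.37 and from 22.6 to 21.7. The decline was therefore carried by buccal mucosa replicate 1 and both ventral tongue samples. The call was lost without buccal mucosa replicate 1, without dorsal tongue replicate 2 and without either ventral tongue sample.

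For the collagens, Col5a2 (0.41 ± 0.10, adjusted p = 0.0107) and Col5a1 (0.32 ± 0.10, adjusted p = 0.0264) rose with Col5a3, so that all 3 chains of collagen V passed. Col1a1 (0.13 ± 0.10, adjusted p = 0.355), Col1a2 (-0.00 ± 0.10, adjusted p = 0.980) and Col3a1 (0.13 ± 0.10, adjusted p = 0.384) did not pass, and as the genes nearest the UMI limit they are also those whose differences it compresses. In the 8 samples the elastic fibre genes went from 8.24 to 18.8 per 100 collagen UMIs early to 8.22 to 24.9 late. The ratio was higher late in 7 of 8 samples, by a median of 1.19 times, and lower in hard palate replicate 1 (8.67 to 8.22). The single pair of Eln and Col1a1 was mixed. Eln per 100 Col1a1 UMIs rose in buccal mucosa replicate 1 (11.2 to 20.3) and hard palate replicate 2 (12.95 to 16.3). It rose in ventral tongue replicate 1 (28.3 to 37.6) but fell in replicate 2 (29.5 to 26.9). It fell in both dorsal tongue samples (26.4 to 25.1 and 26.7 to 23.1). Buccal mucosa replicate 2 (7.07 to 6.33) and hard palate replicate 1 (9.69 to 6.52) were lower late too.

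**Figure D4:**
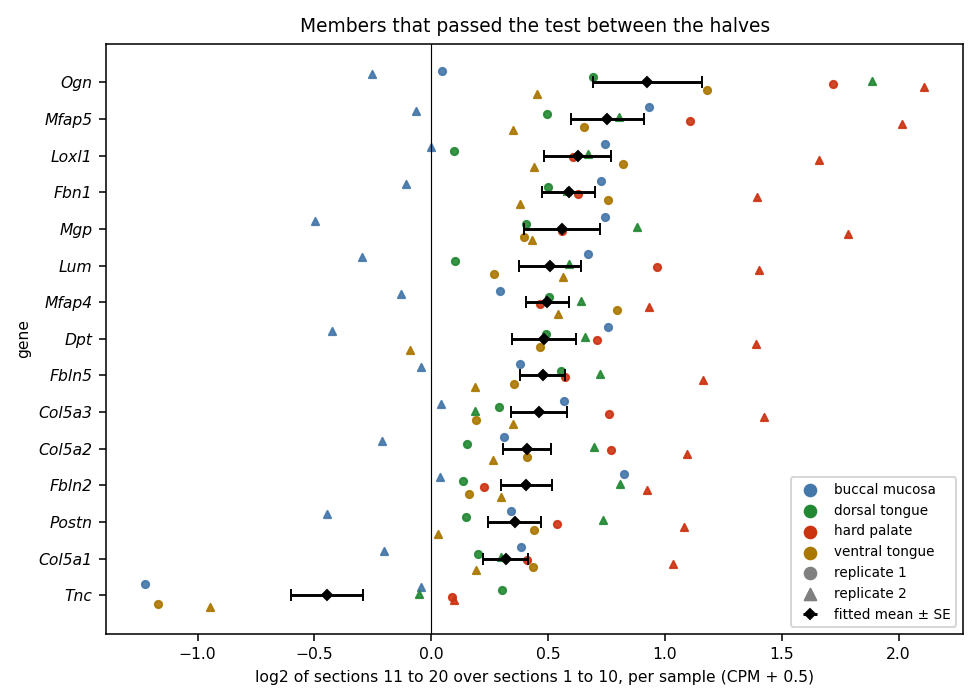
Log2 of later over earlier sections (horizontal axis, CPM + 0.5) of the 15 members that passed, with a point for each sample, coloured by site and shaped by replicate, and a black diamond for the fitted mean with its SE. Hard palate replicate 2 lies at the right for 14 of the genes, and buccal mucosa replicate 2 lies lowest for the same 14.

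The count of 15 moved with single samples. It was 6 without buccal mucosa replicate 1, 7 without hard palate replicate 2 and 9 without dorsal tongue replicate 2, 21 without buccal mucosa replicate 2, and 11 to 15 without each of the others, in fits that called 3401 to 5326 of all genes. Without hard palate replicate 2, 6 members were higher and 1 lower, beside 2046 higher and 3104 lower among all genes. Without both hard palate samples, an alternative chosen after seeing the data, 7 members passed (6 higher, 1 lower), beside 2662 higher and 2869 lower among all genes. With all 8 samples these were 14 and 1, beside 2815 and 2123, so the higher members became fewer while the higher genes changed little.

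Other tissues changed along the same axis, and their part was not tested. Of the 20 keratinocyte genes 14 were lower late, and their sum fell in all 8 samples, to 0.353 to 0.953 of the early level. The fall was least in hard palate replicate 1, from 22261.2 to 21222.5 CPM. There the sum showed no steady fall by section and was highest, at 39122 CPM, in section 20, its shallowest section. All 9 tested endothelial genes, 9 of 10 smooth muscle and pericyte genes, 9 of 10 Schwann cell and nerve genes and 9 of 14 tested skeletal muscle genes were higher late. The fibroblast list, which shares 6 genes with the members, had 6 of 12 higher. When sections were split by the keratinocyte level in place of their number, 19 of 40 members were higher in the epithelium-poor sections and none was lower, beside 3058 higher and 2063 lower among all genes. Those sections were chosen for low keratinocyte CPM, so transcripts of other cells can gain share there by the split itself.

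Whether the change along the sections depends on the site was asked by an interaction test. One of 40 members passed, against 0.408% of all genes, and it was Smoc2, a calcium-binding relative of Sparc (adjusted p = 0.0203). Smoc2 went from 5.65 to 15.9 and from 7.89 to 29.6 CPM between early and late sections of dorsal tongue, and from 16.7 to 25.9 and from 31.7 to 45.3 in hard palate. In buccal mucosa it went from 23.1 to 22.1 and from 80.9 to 55.9, and in ventral tongue from 15.4 to 12.04 and from 18.7 to 14.4. Both dorsal tongue samples thus at least doubled, both palate samples rose by less, and the other 4 samples were lower late.

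Within sites the fitted log2 difference of Smoc2 was 1.62 ± 0.17 in dorsal tongue, 0.36 ± 0.15 in hard palate, -0.22 ± 0.15 in buccal mucosa and -0.29 ± 0.17 in ventral tongue (SE, 2 samples each). These SEs rest on a spread shared by all sites and do not measure the spread of the samples at 1 site. The call was lost without either dorsal tongue sample (adjusted p = 0.0887 and 0.166) and without either ventral tongue sample (0.0923 and 0.0688), and with reads in place of UMIs (0.0549). Leaving out buccal mucosa replicate 1 raised the number of members called to 10 (987 of all genes), and replicate 2 to 4 (538 of all genes).

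**Figure D5:**
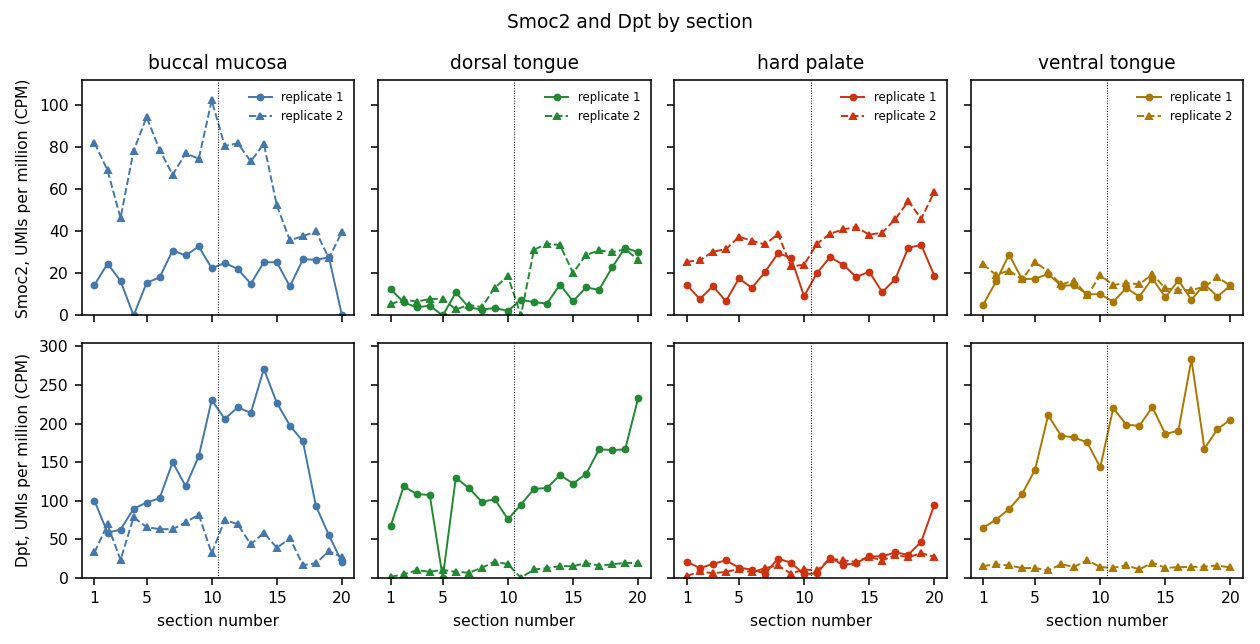
CPM (vertical axis, from 0) of Smoc2 (upper row) and Dpt (lower row) in each of the 20 sections (horizontal axis) at the 4 sites, with replicate 1 as circles on a solid line and replicate 2 as triangles on a dashed line; the dotted line divides sections 1 to 10 from 11 to 20. Smoc2 climbs late in both dorsal tongue samples, and Dpt lies above 60 CPM throughout ventral tongue replicate 1 and below 23 CPM in replicate 2.

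For some other members the differences within single sites are given as values only. None of these members passed the interaction test, so their differences were not shown to depend on the site. In hard palate, fitted differences were 1.82 ± 0.26 for Ogn, 1.57 ± 0.26 for Tnxb and 1.43 ± 0.26 for Mfap5, and Tnxb went from 5.68 to 14.9 and from 5.30 to 22.8 CPM. In dorsal tongue Fmod had 3.05 ± 0.45, from 0 to 2.29 CPM and from 2.66 to 20.5 CPM. Col12a1 had -0.91 ± 0.21 in buccal mucosa and 0.64 ± 0.14 in hard palate, where it went from 28.3 to 45.1 and from 21.8 to 44.1 CPM. Section by section, Spearman's rho of Mfap5 with section number was 0.70 to 0.97 in 7 samples and -0.45 in buccal mucosa replicate 2 (20 sections each, which share a library and differ in depth).

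Further genes of the same pathways were read from 6 lists. In the hard palate none of 26 collagen-processing genes and none of the 9 tested of 11 other small leucine-rich proteoglycans passed. Among 13 other elastic fibre genes Vcan (versican) was higher (33.3 and 41.2 CPM against 6.39 to 11.6; log2 fold change 1.74 ± 0.23, adjusted p = 0.00789), and Adamtsl5 (-1.62 ± 0.25, adjusted p = 0.0118) and Adamtsl4 (-1.60 ± 0.25, adjusted p = 0.0126), relatives of ADAMTS proteases without a protease domain, were lower. Of 19 cross-linking and turnover genes 3 were higher, the metalloproteases Mmp13 (3.44 ± 0.46), Mmp9 (3.29 ± 0.78) and Mmp14 (0.89 ± 0.21), and Mmp3 was lower (-2.81 ± 0.30). Of 15 TGF-beta signalling genes Tgfb2 was higher (40.5 and 44.1 CPM against 14.7 to 18.98; 1.06 ± 0.17, adjusted p = 0.0135), and of 23 basement membrane genes Lama3 was (1.90 ± 0.47, adjusted p = 0.0499).

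Along the sections, 7 of 12 tested other elastic fibre genes were higher late and none was lower, led by Emilin1 (0.71 ± 0.17, adjusted p = 0.00964) and Adamtsl4 (0.63 ± 0.10, adjusted p = 0.00122). The 2 further proteoglycans that rose, of 9 tested, were Aspn (0.81 ± 0.18) and Ecm2 (0.63 ± 0.13). Of 26 collagen-processing genes 4 rose, among them Plod1 (a lysyl hydroxylase, 0.55 ± 0.11), and 3 fell, among them P4hb (-0.45 ± 0.08), shares close to the 15.7% and 11.9% of all genes. Cross-linking and turnover had 5 of 19 higher and none lower, TGF-beta signalling 6 of 15 higher and 1 lower, and basement membrane genes 7 of 23 higher and 3 lower, with Col4a1 at 0.67 ± 0.12 and the keratinocyte collagen Col17a1 at -0.52 ± 0.15.

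Dpt, singled out after its values were seen, was the member whose replicates disagreed most at 2 sites. It had 164 and 52.4 CPM in replicates 1 and 2 of buccal mucosa, 129 and 13.4 in dorsal tongue, 20.8 and 18.3 in hard palate, and in ventral tongue 184 and 14.7. The fold between replicates was thus 9.57 in dorsal tongue and 12.5 in ventral tongue, beside medians over the members of 1.203 and 1.17, and no site comparison called Dpt. The 3 samples above 100 CPM all had Xist above 100 CPM, but hard palate replicate 2, with Xist at 338 CPM, had Dpt at 18.3 CPM. The last 1000 bases of Dpt overlap the predicted gene Gm32569 on the other strand. Those of Mfap4 overlap Mapk7 and those of Ogn overlap Cenpp, also on the other strand. The values of Dpt, Mfap4 and Ogn are therefore uncertain in the same way as those of Tnxb.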

How the data were processed

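The authors deposited, per sample, 3 tables of genes by 20 sections: UMI counts, read counts, and transcript numbers. The deposited transcript numbers are estimated counts, which the values show to be UMIs corrected for collisions between identical UMIs. Per the submitters' processing notes the tools were Trim Galore 0.6.10 and STAR 2.7.9a, with the build GRCm38. No source used here names the counting program. UMI counts were used unless stated. Of 33549 entries 413 named several genes. These took 0.185% to 0.251% of the UMIs per sample, stayed in library sizes and were never named.

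Each sample's UMIs were added up, over its 20 sections or separately over sections 1 to 10 and 11 to 20, then filtered (filterByExpr) and scaled (TMM). All genes were tested by the quasi-likelihood F-test of edgeR 4.0.16 in R 4.3.3, and a gene was called at a Benjamini-Hochberg adjusted p below 0.05. Site fits used all 8 samples with 1 estimate of the spread, and the contrast set a site against the average of the others on the log scale. Later and earlier sections were contrasted in 16 libraries, blocked by sample. Differences within sites came from 1 fit of these libraries, with 1 estimate of the spread for all sites. SE is the log2 difference divided by the square root of F. Log2 ratios per sample used a pseudocount of 0.5 CPM. Alternatives were RLE scaling, no filter, DESeq2 1.42.0, reads, estimated transcripts (rounded), leaving out each sample, the replicate number as a block, and sections split into epithelium-rich and epithelium-poor by Otsu's threshold on 20 keratinocyte genes. The fits were tested on counts simulated with the same spread for every gene, which is simpler than the spread between these replicates.

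The members, lists and rules were chosen with earlier results of these data known. Members were described in every sample where they passed, reached a mean of 10 CPM in 1 group and showed no overlap (for early against late sections, had the same sign in all 8 samples), or led their role; where none passed, the 3 with the smallest p are given, and other members that passed or came close are named with their values. Positions are from the GENCODE annotation of GRCm38 and promoters from RefSeq. The barcode table was not used. Intervals of counting error were not added to the spread between samples, and the fewest UMIs of a member in a sample were 7.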

Additional observations from a re-analysis of the deposited data

Results flagged for a closer look

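Smoc2 changed along the sections to a different extent at different sites (interaction test over the 3 terms of site by section group, adjusted p = 0.0203, edgeR's quasi-likelihood F-test). The fitted log2 differences, later minus earlier sections, were 1.62 ± 0.17 in dorsal tongue, 0.36 ± 0.15 in hard palate, -0.22 ± 0.15 in buccal mucosa and -0.29 ± 0.17 in ventral tongue (SE from a spread shared by all sites, 2 samples each). Of the 15 members that differed between later and earlier sections, none had a sample standing apart from the other 7 by Dixon's test at 95%.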

How the results depend on the processing

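Counts are given as members called, then all genes called. With no filter on low counts, the interaction gave 14 and 1958 (1 and 73 in the report), any difference 16 and 4522 (2 and 887), buccal mucosa 8 and 2584 (0 and 134), dorsal against ventral tongue 2 and 377 (0 and 1), dorsal tongue 3 and 1282 (1 and 156), hard palate 14 and 3728 (5 and 1817) and ventral tongue 5 and 1321 (0 and 240). By DESeq2 these were 5 and 419, 10 and 3294, 5 and 1392, 1 and 143, 539 genes for dorsal tongue, 9 and 3109, and 1 and 849. With reads the interaction gave 0 and 31, any difference 1 member and dorsal tongue 0, and RLE scaling gave 128 genes for the interaction. In epithelium-poor sections alone, any difference gave 0 members, buccal mucosa 228 genes, dorsal against ventral tongue 0 genes, dorsal tongue 0 and 91, hard palate 8 members and ventral tongue 425 genes. Epithelium-poor against epithelium-rich sections gave 25 genes for the interaction. Without both hard palate samples, chosen after seeing the data, later against earlier sections gave 7 members, beside 2662 higher and 2869 lower among all genes. With the replicate number as a block (replicate block), any difference gave 1 and 362, buccal mucosa 2 genes, dorsal against ventral tongue 0 genes, dorsal tongue 0 and 83, hard palate 3 members and ventral tongue 48 genes. Same-numbered samples of different sites deviated together in 2 of 6 pairs of sites (r = 0.548 for dorsal and ventral tongue, 0.139 for buccal mucosa and hard palate) and apart in 4 (r = -0.105 to -0.213, over 18415 genes). The numbers were not taken to pair samples. By sex-linked genes the hard palate numbers ran opposite to those of the other sites, so its correlations cannot show whether sites shared mice. The replicate block used the numbers as given. Whether same-numbered dorsal and ventral tongue samples came from the same mice was not tested, and these sites were compared unpaired. Leaving out 1 sample at a time gave, for members and genes, 0 to 10 and 10 to 987 for the interaction, 6 to 21 and 3401 to 5326 for later against earlier sections, 0 to 12 and 0 to 5684 for any difference, 0 to 6 and 0 to 5093 for buccal mucosa, 0 to 0 and 0 to 123 for dorsal against ventral tongue, 0 to 4 and 1 to 1801 for dorsal tongue, 0 to 10 and 318 to 5526 for hard palate, and 0 to 2 and 0 to 1320 for ventral tongue. The causes of these shifts were not tested. Of the 21 results for single genes that were recomputed, those with a log2 difference kept its direction, although several lost their call as described above. The interaction test and the test of any difference have no direction. Other named genes were not recomputed. With 2 samples a site, members below 10 CPM such as Fbn2 and Ltbp2 rest on few UMIs, and members near the UMI limit are compressed.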
